A study of Mus musculus with 24 samples.

Results

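The genes described here encode voltage-gated sodium and calcium channels. They were taken by symbol: the sodium channel genes Scn followed by a number and a or b, all Cacna genes, Cacnb1 to Cacnb4 and Cacng1 to Cacng8. Of 33 such genes listed in at least 1 of the 4 deposited tables, 31 were listed in all 4 and are the members, out of 14014 genes listed in all 4. The other 2, Cacna2d4 and Scn10a, were each listed in some tables only and are not described. The members comprise 14 pore subunits, 6 for sodium (Scn1a, Scn2a, Scn3a, Scn7a, Scn8a and Scn9a) and 8 for calcium (Cacna1a to Cacna1e and Cacna1g to Cacna1i). The 17 auxiliary subunits are 4 sodium beta subunits (Scn2b, Scn3b and Scn4b among them), 3 calcium alpha2delta subunits (Cacna2d1 to Cacna2d3), 4 calcium beta subunits (Cacnb1 to Cacnb4) and 6 gamma subunits (Cacng2, Cacng3, Cacng4, Cacng5, Cacng7 and Cacng8).

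Ribosome-depleted total RNA was sequenced from cortex. All mice were male and 3 to 4 months old. In every animal the middle cerebral artery had been occluded for 1 h with a monofilament, followed by 1 day of reperfusion, a model of ischemic stroke. All animals, wild type included, carry the strain name C57BL/6N-Cdr1asem1Nikr, and the KO animals lack ciRS-7, a circular RNA known also as Cdr1as and as a binding partner of miR-7, a microRNA. Each sample is labelled CL or PI; the labels do not say what these stand for, and both are kept unchanged. The 4 groups are CL WT (wild type, CL cortex), PI WT (wild type, PI cortex), CL KO (ciRS-7 KO, CL cortex) and PI KO (ciRS-7 KO, PI cortex), with 6 libraries each, and a CL and a PI library of the same genotype and number come from the same animal. The CL cortex is therefore from an operated animal, and cortex of animals without surgery was not analysed here. The strain name gives 1 edited allele of Cdr1as. The study set out to compare WT and KO animals 1 day after ischemia.

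Voltage-gated sodium channels open within moments of a depolarisation and carry the rising phase of the action potential, and in neurons they are concentrated at the axon initial segment and the nodes of Ranvier. Voltage-gated calcium channels turn depolarisation into calcium entry, which drives transmitter release, dendritic signalling and gene expression. In both families 1 large alpha subunit forms the pore and the voltage sensor, while the auxiliary subunits set how many channels reach the membrane and how they gate. Most Cacng genes of the brain encode transmembrane AMPA receptor regulatory proteins (TARPs), which traffic and gate AMPA receptors more than they act on calcium channels. Both channel families are known as routes of ion entry into neurons during ischemia.

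Values are log2 CPM (CPM being the reads of a gene per M reads of its library), with each table of 2 groups scaled on its own, so levels are compared only within a table. In the deposited values the 2 lowest and the 2 highest of each group of 6 had been replaced by the group's quartiles. The 4 inner values of each group were solved back from them, and the lowest, median and highest of a group below are those of its 4 inner values. Groups are said not to overlap when their inner values do not. Fold changes are differences of the means of the inner values, and a gene passed the test at an adjusted p under 0.05 (moderated trimmed-mean test on limma's empirical Bayes, two-sided, Benjamini-Hochberg over the table). The effective depth was 5.27 to 10.5 M reads per library, and 3 reads correspond to 0.286 to 0.569 CPM. Cdr1as lay between 2558 and 3890 CPM in the WT libraries, and in the KO libraries it lay at or under 0.166 CPM, below that limit. Markers of cortical excitatory neurons were present, with Slc17a7 at a mean of 8.74 and Camk2a at 9.90 log2 CPM in CL WT. Over all genes 2 libraries stood apart. CL KO replicate 6 was among the 2 lowest or 2 highest of its group in 89.5% of genes and PI WT replicate 4 in 80.7%, where 66.7% is the even share. Over the 31 channel genes, CL WT replicate 1 was in such a pair as often as CL KO replicate 6, being among the 2 lowest for 6 and the 2 highest for 23. The counts of channel genes that passed in PI against CL are given with and without these 3 libraries.

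Levels per kilobase of exon were compared in CL WT. The level of Cacnb4, a calcium channel beta subunit, was highest at 104 CPM per kb, and the sodium pore Scn2a stood at 76.1 CPM per kb. Scn1a was at 46.0, Cacna2d1 at 43.8, Scn2b at 42.0 and Scn8a at 29.3 CPM per kb. The calcium pores were lower per length: the R-type gene Cacna1e led them at 19.5 CPM per kb, ahead of the P/Q-type gene Cacna1a at 11.4 and the N-type gene Cacna1b at 8.97 CPM per kb. At the bottom were Cacng5 at 0.492 and Scn9a, a pore best known from sensory neurons, at 0.181 CPM per kb. Of the 30 pairs of neighbours in this order, the inner values of 12 did not overlap and those of 18 did. The order within those 18 pairs is not resolved, and Scn1a with Cacna2d1 and Cacna2d1 with Scn2b are among them. Summed per kilobase, the sodium pores gave 163 CPM per kb in CL WT, against 59.3 for the calcium pores, 59.7 for the alpha2delta, 135 for the calcium beta and 31.9 CPM per kb for the gamma subunits.

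**Figure D1:**
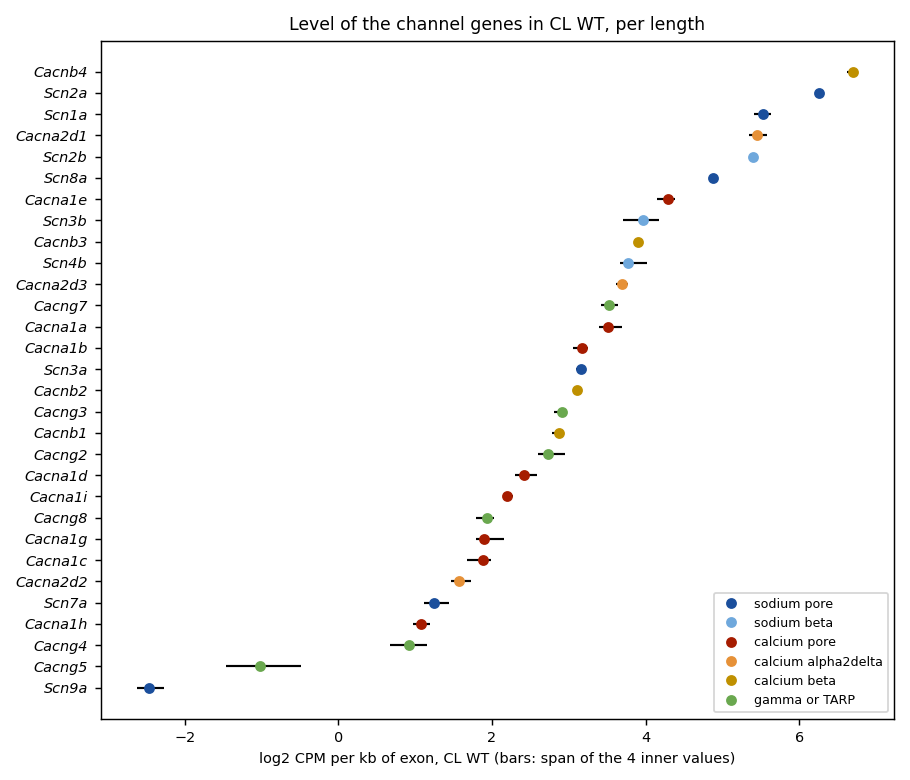
Level of the channel genes described here in CL WT, as log2 CPM per kilobase of exon on the horizontal axis; points are means of the 4 inner values of 6 libraries, bars their span, and colours the subunit class. Cacnb4 and Scn2a lie at the top, and Cacng5 and Scn9a stand apart at the bottom.

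Lower levels in PI than in CL made up nearly all of the channel changes, in both genotypes. In WT, 9 of 31 members were lower in PI and 1, Cacna1g, was higher, where 10.6% of all genes passed the test (5.2% higher, 5.4% lower). In KO, 11 of 31 were lower and 0 higher, where 10% of all genes passed (5.11% higher, 4.94% lower). An unadjusted p under 0.05 was reached by 17 members in WT and 18 in KO, and by 23.9% and 24.9% of all genes. With or without a call, 22 members were lower in PI in WT and 24 in KO, beside 47.7% and 50.1% of all genes. The median fold change over the members was -0.16 in WT and -0.21 in KO on the log2 scale, beside 0.01 and -0.00 over all genes tested. Groups did not overlap, with PI lower, for 11 members in WT and 17 in KO, where all genes gave 13.1% and 13.4%, and 1 member in each genotype, Cacna1g, did not overlap with PI higher (13.2% and 13.4% of all genes). Without PI WT replicate 4, 10 members were lower and 1 higher in WT, without CL WT replicate 1 the counts were 9 and 1, and without CL KO replicate 6, 10 were lower and 1 higher in KO. With the animal as a block, which uses the pairing of the CL and PI libraries, 16 members passed in WT (14 lower, 2 higher) and 17 in KO (16 lower, 1 higher), where 15.7% and 15% of all genes did. The block leaves fewer degrees of freedom per gene, so its SE leans more on other genes of like level. In WT that SE was 0.057 against 0.047 without the block for Scn8a, and 0.081 against 0.127 for Scn3b. Calls with the block, here and below, therefore do not measure how well the animals agree. With no trend in the prior variance of the test, 6 passed in each genotype, all of them lower, where 7.01% and 5.15% of all genes did. Limma on the deposited values called 21 members in WT and 20 in KO, where it called 44.6% and 46.5% of all genes. The calls lost with no trend were those of Cacna1g, Cacna2d1, Cacnb3 and Scn2b in WT and of Scn8a, Scn2b, Cacna1e, Cacnb4 and Cacng3 in KO. With the trend kept, the KO count was 7 without PI KO replicate 2, 3 or 5 or without CL KO replicate 3.

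Of these calls 7 were made in both genotypes (Scn1a, Scn2a, Scn8a, Scn2b, Cacna2d1, Cacna2d3 and Cacnb4), which is 70% of the WT calls and 63.6% of the KO calls, and 14 genes passed in at least 1. Over all genes the shared calls were 55.9% of those in WT and 59.3% of those in KO. Of the 31 members, 27 had the same sign in both genotypes, 21 negative and 6 positive, beside 71.0% of all genes, 34.5% negative and 36.4% positive. In bulk tissue, fewer cells of a type and less RNA per cell cannot be told apart, and this holds for every difference below.

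**Figure D2:**
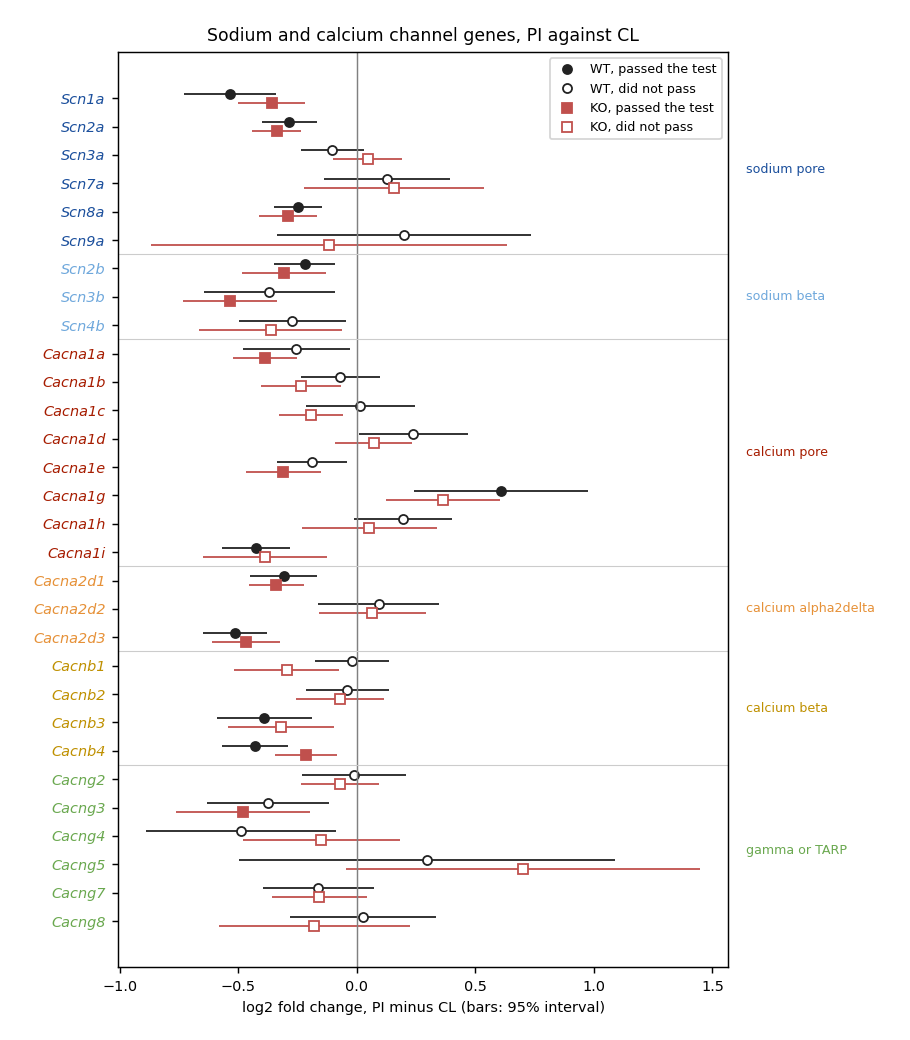
PI minus CL difference in log2 CPM for the channel genes described here, in WT (circles) and KO (squares), grouped by subunit class; bars are 95% intervals and filled symbols passed the test. Filled symbols lie left of 0 except Cacna1g in WT, at 0.61.

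Among the sodium pores, the 3 most abundant per length fell in PI in both genotypes. Scn1a encodes the sodium channel on which fast-spiking inhibitory neurons depend. Its inner values in WT ran from 8.88 to 9.12 with a median of 9.0 log2 CPM in CL, and from 8.32 to 8.61 with a median of 8.47 in PI. In KO they ran from 8.74 to 8.91 with a median of 8.85 in CL, and from 8.38 to 8.54 with a median of 8.50 in PI. Every PI inner value was below every CL one in each genotype, which by itself makes PI lower in every animal as deposited. The log2 fold change of Scn1a was -0.54 (SE 0.09, adjusted p = 0.00241) in WT, a change of -31.0%, and -0.36 (SE 0.06, adjusted p = 0.00439) in KO.

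Scn2a encodes the main sodium channel of excitatory neurons and was the most abundant sodium pore per length. In WT its inner values were 9.88 to 9.97 (median 9.92) log2 CPM in CL and 9.58 to 9.70 (median 9.63) in PI. In KO they were 9.90 to 9.95 (median 9.92) in CL and 9.55 to 9.62 (median 9.58) in PI. The groups were narrow and did not overlap. Scn2a fell by 0.28 (SE 0.05, adjusted p = 0.00437) in WT and by 0.34 (SE 0.05, adjusted p = 0.000816) in KO on the log2 scale.

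Scn8a encodes the channel that gathers at mature axon initial segments and nodes. Its CL inner values in WT were 8.80 to 8.89 (median 8.86) log2 CPM against 8.59 to 8.63 (median 8.60) in PI. In KO they were 8.82 to 8.95 (median 8.85) in CL against 8.54 to 8.64 (median 8.56) in PI. The PI inner values were again all lower. Scn8a fell by 0.25 (SE 0.05, adjusted p = 0.00464) in WT and by 0.29 (SE 0.06, adjusted p = 0.00635) in KO.

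The remaining sodium pores did not pass. Scn3a, a sodium channel prominent before birth, gave -0.10 (SE 0.06) in WT and 0.05 (SE 0.07) in KO on the log2 scale. Scn7a, which encodes an atypical channel of glia and sodium-sensing cells, gave 0.13 (SE 0.12) and 0.16 (SE 0.18). Scn9a had the widest interval of the pores, from -0.87 to 0.63 in KO, at a median near 1 log2 CPM. The genes of 5 of the 6 sodium pores lie in 1 cluster on chromosome 2 (GENCODE M21 on GRCm38): Scn3a at chr2:65457118-65567627, Scn2a at chr2:65620771-65767447, Scn1a at chr2:66270778-66440840, Scn9a at chr2:66480080-66634962 and Scn7a at chr2:66673425-66784914. Within this cluster Scn2a and Scn1a fell, and the other 3 did not pass in either genotype. Scn8a lies apart on chromosome 15.

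The sodium beta subunits are single-pass proteins that modulate gating and act as cell adhesion molecules, and the 3 described here had negative differences in both genotypes. Scn2b, which links covalently to the pore, had CL inner values of 7.60 to 7.64 (median 7.60) log2 CPM in WT and PI values of 7.31 to 7.49 (median 7.38). The KO libraries gave CL values of 7.64 to 7.69 (median 7.66) and PI values of 7.20 to 7.53 (median 7.35). The CL inner values lay close together while those of PI KO spread over a wider range, without overlap. Scn2b fell by 0.22 (SE 0.06, adjusted p = 0.0323) in WT and by 0.31 (SE 0.08, adjusted p = 0.0331) in KO. These were among the weaker calls. The WT call was lost without PI WT replicate 3, 5 or 6 or any 1 of the 6 CL WT libraries (-0.25 to -0.19 over all omissions), and the KO call without PI KO replicate 2, 3 or 5 or any 1 of the 6 CL KO libraries (-0.36 to -0.25).

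Scn3b, which binds the pore without a covalent bond, had CL inner values of 6.15 to 6.62 (median 6.45) log2 CPM in WT and PI values of 5.85 to 6.19 (median 6.08). CL values in KO were 6.30 to 6.58 (median 6.49), and PI values 5.84 to 6.04 (median 5.92). The groups overlapped in WT and did not in KO. The change was -0.37 (SE 0.13, adjusted p = 0.0880) in WT and -0.54 (SE 0.09, adjusted p = 0.00334) in KO, and with the animal as a block the WT adjusted p was 0.000635, at an SE of 0.08. The WT animals differed in the size of the step. As deposited, replicate 1 had the smallest, 6.21 in CL and 6.16 in PI, and replicate 4 the largest, 6.59 and 5.91 log2 CPM. In WT the gene also passed without CL WT replicate 1 or 3.

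Scn4b, the subunit tied to resurgent sodium current, gave -0.27 (SE 0.10, adjusted p = 0.129) in WT and -0.36 (SE 0.14, adjusted p = 0.123) in KO, without overlap of the groups in either. With the animal as a block its adjusted p was 0.00752 in WT and 0.0124 in KO. Scn2b at chr9:45117782-45130070 and Scn4b at chr9:45138395-45154152 are neighbours on chromosome 9.

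The calcium pores moved in both directions. Cacna1a, the P/Q-type channel of fast transmitter release, had CL inner values of 6.90 to 7.21 (median 6.99) log2 CPM in WT and PI values of 6.58 to 6.91 (median 6.79). The corresponding KO values were 7.08 to 7.16 (median 7.13) in CL and 6.67 to 6.82 (median 6.74) in PI. The WT groups overlapped narrowly, and the KO groups stood apart. Cacna1a changed by -0.26 (SE 0.10, adjusted p = 0.149) in WT and by -0.39 (SE 0.06, adjusted p = 0.00208) in KO. With the animal as a block the WT adjusted p was 0.00315.

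Cacna1e, the R-type channel, had CL inner values of 8.80 to 9.03 (median 8.96) log2 CPM in WT and PI values of 8.70 to 8.83 (median 8.74). In KO the CL values were 8.90 to 9.03 (median 8.92) and the PI values 8.52 to 8.76 (median 8.62). Overlap was seen in WT only. As deposited, with the extremes drawn in, every PI value lay below every CL value in both genotypes. A count of animals therefore adds nothing here. The change was -0.19 (SE 0.07, adjusted p = 0.104) in WT and -0.31 (SE 0.07, adjusted p = 0.0197) in KO. The KO call was lost without PI KO replicate 2, 3 or 5 or CL KO replicate 3 or 5, the WT difference passed without CL WT replicate 2 or 5, and with the animal as a block the WT adjusted p was 0.0176.

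The 3 T-type genes, which encode channels opened by small depolarisations, did not behave alike. Cacna1g had CL inner values of 5.14 to 5.50 (median 5.15) log2 CPM in WT and PI values of 5.57 to 6.25 (median 5.77). The KO libraries gave CL values of 5.23 to 5.57 (median 5.41) and PI values of 5.63 to 5.95 (median 5.75). Every PI inner value was above every CL one in both genotypes. Cacna1g rose by 0.61 (SE 0.17, adjusted p = 0.0363) in WT, or 52.5%, and the difference in KO was 0.36 (SE 0.11, adjusted p = 0.0566). The WT call was lost without PI WT replicate 3 or 5 or CL WT replicate 2, 3, 4 or 5 (0.47 to 0.70 over all omissions), and in KO the gene passed without CL KO replicate 1 or 6 and, at an adjusted p of 0.00266, with the animal as a block.

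Cacna1i, a T-type channel gene of the brain, went the other way. Its CL inner values were 5.46 to 5.57 (median 5.48) log2 CPM in WT and its PI values 5.03 to 5.12 (median 5.07). CL values in KO were 5.41 to 5.72 (median 5.59), and PI values 4.98 to 5.34 (median 5.22). The groups did not overlap in either genotype. Cacna1i fell by 0.42 (SE 0.07, adjusted p = 0.00158) in WT, and the KO difference was -0.39 (SE 0.12, adjusted p = 0.0603). In KO it passed without PI KO replicate 1 or 4 and, at an adjusted p of 0.0034, with the animal as a block. Cacna1h, the third of the type, gave 0.19 (SE 0.10) in WT and 0.05 (SE 0.13) in KO, and did not pass.

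The L-type genes Cacna1c and Cacna1d, whose channels couple calcium entry to transcription, did not pass in either genotype. Cacna1c gave 0.01 (SE 0.11) in WT and -0.19 (SE 0.06, adjusted p = 0.0700) in KO, and Cacna1d gave 0.24 (SE 0.11) and 0.07 (SE 0.07). Cacna1b, the N-type channel of presynaptic terminals, gave -0.07 (SE 0.08) in WT and -0.24 (SE 0.08, adjusted p = 0.0754) in KO. With the animal as a block Cacna1d was higher in WT (adjusted p = 0.0171) and Cacna1b lower in KO (adjusted p = 0.0298).

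The alpha2delta subunits sit outside the membrane and carry channels to the surface. Cacna2d3 at chr14:28904943-29721864 had the smallest p of all members in WT. Its CL inner values were 6.74 to 6.89 (median 6.83) log2 CPM in WT and its PI values 6.25 to 6.35 (median 6.32). The corresponding KO values were 6.69 to 6.83 (median 6.76) in CL and 6.26 to 6.38 (median 6.26) in PI. The gap between the groups was wider than the span of either group in both genotypes. Cacna2d3 fell by 0.51 (SE 0.06, adjusted p = 0.000314) in WT and by 0.47 (SE 0.07, adjusted p = 0.000872) in KO, changes of -29.9% and -27.7%.

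Cacna2d1, a target of gabapentin and the most abundant of the 3 per length, had CL inner values of 8.98 to 9.21 (median 9.08) log2 CPM in WT and PI values of 8.76 to 8.80 (median 8.77). In KO the CL values were 9.05 to 9.12 (median 9.06) and the PI values 8.67 to 8.79 (median 8.74). The PI inner values were all below the CL ones. Cacna2d1 fell by 0.31 (SE 0.07, adjusted p = 0.00887) in WT and by 0.34 (SE 0.05, adjusted p = 0.00183) in KO. Cacna2d2 gave 0.09 (SE 0.12) and 0.07 (SE 0.10), with overlap in both.

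The calcium beta subunits are cytoplasmic proteins that bind the pore and aid its surface expression. Cacnb4 at chr2:52428320-52676831 had CL inner values of 9.79 to 9.93 (median 9.88) log2 CPM in WT and PI values of 9.35 to 9.53 (median 9.44). The KO libraries gave CL values of 9.63 to 9.80 (median 9.75) and PI values of 9.47 to 9.57 (median 9.51). The gap was wide in WT and narrower in KO, without overlap in either. Cacnb4 fell by 0.43 (SE 0.06, adjusted p = 0.00119) in WT and by 0.21 (SE 0.06, adjusted p = 0.0404) in KO. The KO call was lost without any 1 of the 6 PI KO libraries or CL KO replicate 1, 2, 3 or 4 (-0.25 to -0.19). Of its exon bases, 15.99% are shared with A430018G15Rik on the opposite strand, and the strand use of the counting is not given in the sources used here, so reads of the pair cannot be told apart there. In all 10 members share exon bases with another annotated gene, 9 of them with one on the opposite strand.

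Cacnb3 had CL inner values of 5.86 to 5.94 (median 5.91) log2 CPM in WT and PI values of 5.41 to 5.75 (median 5.46). CL values in KO were 5.79 to 6.16 (median 5.99), and PI values 5.58 to 5.73 (median 5.67). The PI inner values were below the CL ones in both genotypes, by a small margin in KO. Cacnb3 fell by 0.39 (SE 0.09, adjusted p = 0.0178) in WT, and the KO difference was -0.32 (SE 0.10, adjusted p = 0.0693). In KO it passed without CL KO replicate 2 or 6 and, at an adjusted p of 0.00831, with the animal as a block.

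Cacnb1, best known as the beta subunit of skeletal muscle, gave -0.02 (SE 0.07) in WT and -0.30 (SE 0.10, adjusted p = 0.0878) in KO, and with the animal as a block the KO adjusted p was 0.0321. Cacnb2, the main beta subunit of the heart, gave -0.04 (SE 0.08) and -0.07 (SE 0.09).

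Of the 6 gamma genes 1 passed, in KO. Cacng3, a TARP of cortical neurons, had CL inner values of 4.27 to 4.44 (median 4.41) log2 CPM in WT and PI values of 3.83 to 4.25 (median 3.98). The corresponding KO values were 4.18 to 4.59 (median 4.49) in CL and 3.80 to 4.05 (median 4.00) in PI. The groups did not overlap in either genotype. Cacng3 changed by -0.37 (SE 0.12, adjusted p = 0.0650) in WT and by -0.48 (SE 0.13, adjusted p = 0.0352) in KO, and with the animal as a block the WT adjusted p was 0.0124. The KO call was lost without PI KO replicate 1, 2, 3, 5 or 6 or CL KO replicate 3, 4, 5 or 6, and the WT difference passed without PI WT replicate 4 or 5.

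The largest difference of the class, averaged over the genotypes, was that of Cacng5, a TARP gene at the low end of the levels. In WT its inner values were 0.47 to 1.45 (median 0.87) log2 CPM in CL and 0.79 to 1.69 (median 1.18) in PI. In KO they were 0.10 to 1.15 (median 0.52) in CL and 0.98 to 1.57 (median 1.27) in PI. The groups overlapped in both genotypes. The differences of 0.30 (SE 0.37) and 0.70 (SE 0.35) did not pass (adjusted p = 0.691 and 0.231). Cacng2, which encodes stargazin, the first TARP described, gave -0.01 (SE 0.10) and -0.07 (SE 0.08). Cacng4, Cacng7 and Cacng8, the last being the TARP of the hippocampus, gave between -0.49 and 0.03 in WT and between -0.18 and -0.15 in KO, with no call.

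**Figure D3:**
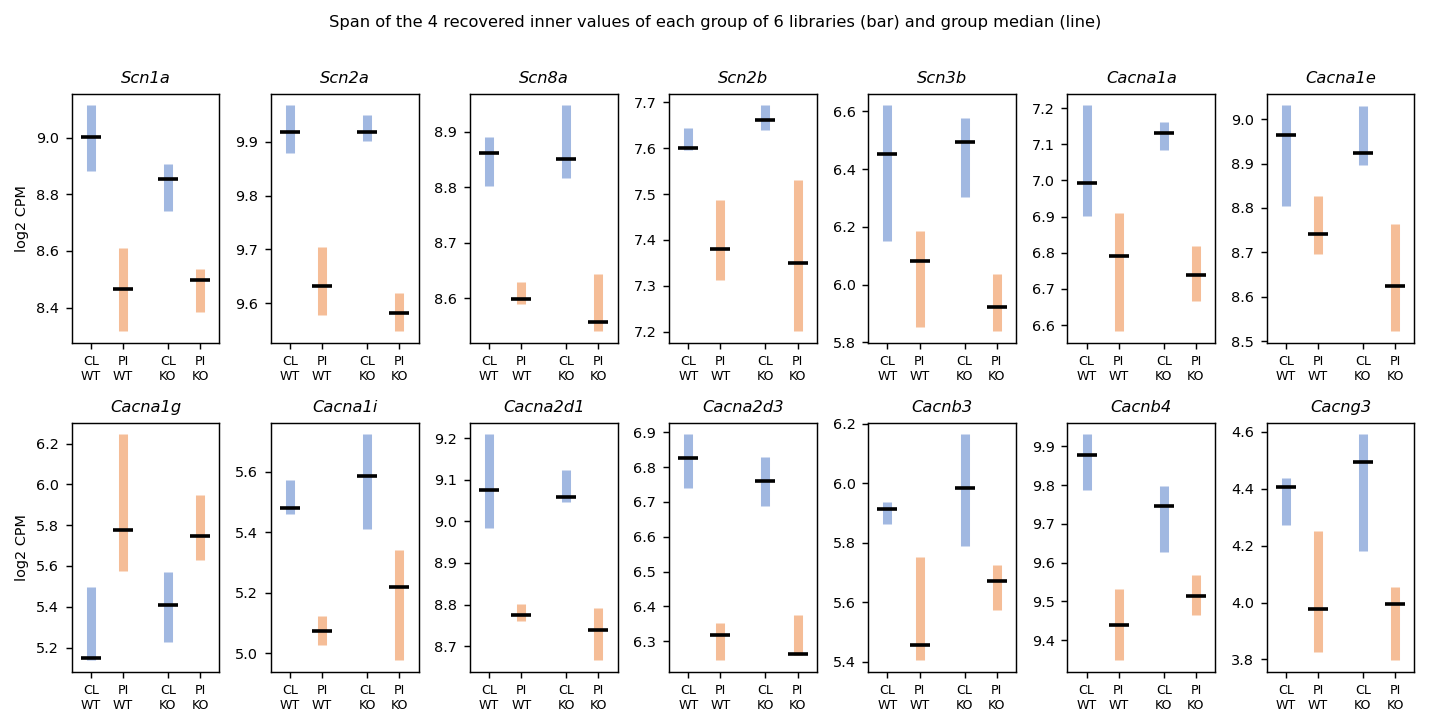
The 14 channel genes that passed the PI against CL test in at least 1 genotype, in log2 CPM; each bar spans the 4 recovered inner values of a group of 6 libraries and the line is the group median, with CL in blue, PI in orange, the WT table on the left of each panel and the KO table on the right. The PI median lies below the CL median in every panel except that of Cacna1g, the WT bars of Scn3b, Cacna1a and Cacna1e overlap, and levels on the left and right come from tables scaled separately.

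Pore and auxiliary subunits were set side by side. Of the 14 pore subunits, 4 fell and 1 rose in WT, and 5 fell in KO. Of the 17 auxiliary subunits, 5 fell in WT and 6 in KO, and 0 rose in either. Over all genes 5.4% fell and 5.2% rose in WT, and 4.94% fell and 5.11% rose in KO. With no trend in the prior variance 4 pore and 2 auxiliary subunits fell in WT and 3 of each in KO. In that setting 7.01% of all genes passed in WT and 5.15% in KO. The median fold change of the pore subunits was -0.09 in WT and -0.22 in KO, and that of the auxiliary subunits -0.22 in WT and -0.21 in KO on the log2 scale. The pore median in WT reflects a mixed class, since the calcium pores had a median of -0.03 with 4 positive and 4 negative members and the sodium pores -0.18. No test of pore against auxiliary subunits was made. Over the deposited values, whose extremes are drawn in, the pore subunits summed to 2949 to 3119 CPM in CL WT and 2544 to 2575 in PI WT, and the auxiliary subunits to 2348 to 2513 in CL WT and 1896 to 2004 CPM in PI WT. In KO the pore sums were 2953 to 3065 in CL and 2412 to 2544 CPM in PI, and the auxiliary sums 2277 to 2434 in CL and 1912 to 1996 CPM in PI. Neither class overlapped between CL and PI in its summed level. The sum over all genes tested did not overlap either, at 1010458 to 1034099 CPM in CL WT and 964093 to 985508 in PI WT, and at 996379 to 1021570 in CL KO and 966284 to 993228 CPM in PI KO.

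Motifs were counted in the promoters of the members and set beside their share in all promoters. RefSeq promoters on GRCm38.p6, from 250 bases before to 50 after a transcription start, were found for 24 members, with 35 starts in all. The GC box GGGCGG, searched on both strands, occurred in 40% of the member promoters and in 35.7% of 32851 promoters. TATAAA occurred in 5.71% against 13.6%, and the cyclic AMP response element TGACGTCA in 0% against 1.79%. The AP-1 letters TGANTCA were found in 2.86% against 7.81%, and GGACAG, the core letters of the REST element, in 17.1% against 22.2%. None of these motifs contains another. The median GC content was 59.7% in the members and 52.7% in all promoters. The pair below is shown because Cacna2d3 and Scn1a fell together in both genotypes while their promoters differ in composition: 81.3% GC with 6 GC boxes, in capitals, for Cacna2d3 (chr14:29721815-29722114, minus strand) and 47.3% GC with 0 GC boxes for Scn1a (chr2:66440788-66441087, minus strand), each 5′ to 3′.
Cacna2d3: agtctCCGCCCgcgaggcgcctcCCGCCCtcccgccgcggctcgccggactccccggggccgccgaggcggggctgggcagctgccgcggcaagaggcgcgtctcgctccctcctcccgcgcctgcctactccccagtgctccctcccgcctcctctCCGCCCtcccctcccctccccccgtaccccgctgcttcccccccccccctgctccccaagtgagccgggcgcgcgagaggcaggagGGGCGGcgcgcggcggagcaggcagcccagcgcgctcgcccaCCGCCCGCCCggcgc
Scn1a: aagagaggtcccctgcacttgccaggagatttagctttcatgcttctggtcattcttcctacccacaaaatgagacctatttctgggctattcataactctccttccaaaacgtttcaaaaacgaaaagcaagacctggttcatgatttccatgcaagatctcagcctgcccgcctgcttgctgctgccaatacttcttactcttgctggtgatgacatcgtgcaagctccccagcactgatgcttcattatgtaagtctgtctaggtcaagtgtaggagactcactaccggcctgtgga

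Genes that work with the channels were counted from 4 lists. Beside them, 5.4% of all genes fell and 5.2% rose in WT, and 4.94% fell and 5.11% rose in KO. With the animal as a block 15.7% of all genes passed in WT and 15% in KO. With no trend these shares were 7.01% and 5.15%. The same shares stand beside the counts of cell type and region markers below. Of 10 partners of sodium channels at the axon initial segment, 4 fell in WT and 5 in KO, and 0 rose. Fgf13, an intracellular FGF that binds the sodium channel tail, fell by 0.57 (SE 0.06, adjusted p = 7.45e-05) in WT and by 0.60 (SE 0.07, adjusted p = 0.00025) in KO. Its relative Fgf14 fell by 0.40 (SE 0.06) and 0.39 (SE 0.06). Ank3, which encodes ankyrin-G, the anchor of sodium channels at the initial segment, fell by 0.19 (SE 0.06, adjusted p = 0.0487) in WT and by 0.32 (SE 0.05, adjusted p = 0.00179) in KO. The WT call of Ank3 was lost without PI WT replicate 2, 3, 5 or 6 or any 1 CL WT library. Fgf12 fell in WT (-0.32), and it lost its call without PI WT replicate 1, 3, 4 or 6 or CL WT replicate 1, 3, 5 or 6. Ank2 (-0.22) and the adhesion gene Nrcam (-0.24) fell in KO. Nrcam also passed in WT with the animal as a block (-0.19, adjusted p = 0.0143). Without CL WT replicate 1 the WT count was 2, and with no trend 2 fell in WT and 3 in KO.

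Of the 7 named genes of the NALCN sodium leak complex 4 were listed, and 2 fell in each genotype. Nalcn, the leak pore itself, fell by 0.33 (SE 0.06, adjusted p = 0.00354) in WT and by 0.28 (SE 0.07, adjusted p = 0.0304) in KO. Its partner Unc80 fell by 0.32 (SE 0.05) and 0.41 (SE 0.05). The KO call of Nalcn was lost without PI KO replicate 3 or 5 or CL KO replicate 2, 3, 4 or 5.

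Of the 14 named regulators and tethers of calcium channels 9 were listed, of which 4 fell and 1 rose in WT, and 4 fell and 2 rose in KO. The calmodulin genes Calm2 (-0.30 and -0.22) and Calm3 (-0.19 and -0.21) and the active zone tether Rims1 (-0.30 and -0.34) fell in both genotypes, each pair giving WT first. Rimbp2, which links RIM proteins to calcium channels, rose by 0.45 (SE 0.08, adjusted p = 0.00291) in WT and by 0.30 (SE 0.08, adjusted p = 0.0321) in KO. Gem, a small GTPase that inhibits calcium channels, rose by 1.48 (SE 0.25, adjusted p = 0.00287) in KO, and gave 0.93 (SE 0.35, adjusted p = 0.123) in WT. Rims2 fell in WT (-0.32) and Cabp1, a calmodulin-like protein, in KO (-0.38). Blocking on the animal, Cabp1 (-0.30, adjusted p = 0.00347) and Stac2 (0.36, adjusted p = 0.00716) also passed in WT, and Rims2 in KO (-0.23, adjusted p = 0.0227). Without CL KO replicate 6, 2 fell in KO, and with no trend 3 fell and 1 rose in WT and 1 of each in KO. Leaving out 1 library cost calls of Calm3 and Rimbp2 in KO, Cabp1 in KO and Calm2 in KO in 6 or more of 12 cases each, and of Calm3 in WT in 6.

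Of 11 genes of calcium extrusion and release, 4 fell in WT and 5 in KO, and 0 rose. The plasma membrane calcium pumps Atp2b1 (-0.38 and -0.30) and Atp2b2 (-0.32 and -0.39) and the IP3 receptor gene Itpr1 (-0.25 and -0.31) fell in both genotypes. Atp2b3 fell in WT (-0.21, lost in 7 of 12 omissions), and Atp2b4 (-0.45, lost in 7) and the sodium-calcium exchanger gene Slc8a2 (-0.48, lost in 4) fell in KO. Slc8a2, with the animal as a block, also passed in WT (-0.24, adjusted p = 0.0149) and Atp2b3 in KO (-0.23, adjusted p = 0.0302). With no trend 2 genes of the list fell in each genotype. The ryanodine receptor genes Ryr1 to Ryr3 did not pass in either genotype.

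Markers of cell types differed between CL and PI as well, and their part in the channel differences was not tested. Of 12 neuron markers, 4 fell in each genotype, Snap25, Syt1, Nefl and Syn1, with medians of -0.21 in WT and -0.18 in KO, beside channel medians of -0.16 and -0.21. Their summed deposited level was 9184 to 9702 CPM in CL WT and 7924 to 8631 in PI WT, and 9056 to 9445 in CL KO and 7694 to 8468 CPM in PI KO, without overlap, as for the sum over all genes given above. Without CL WT replicate 1 the WT count was 2. With no trend 1 marker fell in WT and 2 in KO. With the animal as a block Rbfox3 (adjusted p = 0.0475), Tubb3 (0.0029) and Nefm (0.0028) also passed in WT. Map2, Stmn2, Eno2 and Celf4 stayed between -0.09 and 0.09 in WT and between -0.06 and -0.01 in KO, with no call. Of 6 excitatory cortex markers, Camk2a fell in both genotypes (-0.44 and -0.59) and Tbr1 in KO (-0.26), and the summed level was 1686 to 1805 CPM in CL WT and 1418 to 1550 in PI WT. Of 7 interneuron markers, Vip fell in WT (-0.47) and Gad2 rose in KO (0.38). Pvalb, a marker of the fast-spiking cells, gave -0.35 (SE 0.11, adjusted p = 0.0705) and -0.42 (SE 0.13, adjusted p = 0.0631).

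Microglia markers were higher in PI: 4 of 8 rose and 1 fell in each genotype, with medians of 0.41 and 0.47. C1qb rose by 0.87 in WT and 1.01 in KO and P2ry12, a marker of resting microglia, fell by 0.82 and 0.75. Their summed level was 172 to 183 CPM in CL WT and 189 to 211 in PI WT. Of 7 astrocyte markers, Aqp4 rose in both genotypes (0.27 and 0.41), Gja1 fell in both, and Slc1a2 and Gjb6 fell in WT, so that the list had medians of -0.18 and -0.11. Of 7 oligodendrocyte markers, Cnp and Mal fell in WT and 0 passed in KO, with medians of -0.38 and -0.16. Of 5 precursor markers Cspg4 fell in WT and 0 passed in KO. Of 6 endothelial markers Slco1a4 fell in KO, and 0 of 4 mural markers passed in either genotype. Blocking on the animal, 5 oligodendrocyte markers fell in WT, and 3 fell and 1 rose in KO. The same test gave 1 endothelial marker lower and 2 higher in each genotype.

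Markers of regions next to the cortex were measured too. Of 7 listed striatal markers, 2 fell and 1 rose in WT and 1 fell in KO, with medians of -0.01 and 0.12. Among them Pde10a fell in WT (-0.50) and Ppp1r1b rose in WT (0.63). Their summed level was 223 to 285 CPM in CL WT and 177 to 215 in PI WT, and 211 to 236 in CL KO and 181 to 205 CPM in PI KO. The 5 thalamic markers, 0 of which passed, summed to 342 to 375 CPM in CL WT and 292 to 326 in PI WT, without overlap, and to 305 to 357 in CL KO and 280 to 334 CPM in PI KO, with overlap. Of 5 choroid plexus markers 1, Kl, was listed, at a mean of 1.62 log2 CPM in CL WT, and it did not pass.

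No channel gene passed the test between genotypes. In PI cortex 0 of 31 passed KO against WT, where 0.0208% of all genes did, and 0 had an unadjusted p under 0.05, where 5.75% of all genes did. Limma on the deposited values called 3, where it called 16.5% of all genes. The smallest p belonged to Cacna1c. Its inner values were 6.18 to 6.52 (median 6.30) log2 CPM in PI WT and 6.13 to 6.17 (median 6.14) in PI KO. The KO inner values lay together just below the lowest WT one. The difference was -0.18 (SE 0.09, unadjusted p = 0.0571 and adjusted p = 0.854 in the moderated trimmed-mean test), with an interval of -0.37 to 0.01. The median over the members was -0.03, with -0.06 for pore and -0.01 for auxiliary subunits.

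In CL cortex 0 of 31 passed, where 0.0279% of all genes did, and 3 had an unadjusted p under 0.05, where 5.73% of all genes did. Limma on the deposited values called 5, where it called 16.1% of all genes. Cacnb1 had the smallest p. Its inner values were 4.93 to 5.07 (median 5.04) log2 CPM in CL WT and 5.19 to 5.42 (median 5.26) in CL KO. All KO inner values were above all WT ones. The difference was 0.27 (SE 0.08, unadjusted p = 0.0074 and adjusted p = 0.688 in the moderated trimmed-mean test), with an interval of 0.08 to 0.45. The other 2 were Cacng2 (0.23, unadjusted p = 0.0363) and Scn1a (-0.16, unadjusted p = 0.0440). The median over the members was 0.01, with 0.02 for pore and -0.00 for auxiliary subunits.

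For the 7 genes that fell in both genotypes the intervals of KO minus WT bound what the data can show. In PI the narrowest was that of Scn8a, from -0.14 to 0.09, and the widest that of Scn2b, from -0.22 to 0.17. In CL they ran from -0.08 to 0.11 for Scn2a, the narrowest, and from -0.31 to -0.0049 for Scn1a, the widest and the one of the 7 that excluded 0. The interval for Cacnb4 in CL was -0.26 to 0.0038. Differences of Cacng5 and Scn9a were poorly bounded. The interval for Cacng5 in CL ran from -1.19 to 0.51, and that for Scn9a in PI from -1.20 to 0.29.

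The step from CL to PI was compared between genotypes by a contrast of its own, the PI minus CL difference in KO less that in WT. None of the 31 members passed, and 0 of 14211 genes did (0% called), while 2 members had an unadjusted p under 0.05, where 4.55% of all genes did. Limma on the deposited values called 4, where it called 13.7% of all genes. The smallest p was that of Cacnb4, whose values in all groups are given above: its fall was 0.43 in WT and 0.21 in KO, a contrast of 0.21 with an interval of 0.02 to 0.40 (unadjusted p = 0.0289, adjusted p = 0.992 in the moderated trimmed-mean test). Cacnb1 gave -0.28 (unadjusted p = 0.0414). For Scn1a the contrast was 0.18 with an interval of -0.07 to 0.42, for Cacna1g -0.24 with -0.71 to 0.22, and for Scn3b -0.17 with -0.52 to 0.19. The genes called in 1 genotype only were therefore not shown to differ between genotypes.

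Since ciRS-7 binds miR-7, the members' 3′ UTRs were searched for the miR-7 seed match. The mature sequences, from RefSeq, are shown with the seed (bases 2 to 8) in capitals, which both share.
mmu-miR-7a-5p: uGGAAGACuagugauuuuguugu
mmu-miR-7b-5p: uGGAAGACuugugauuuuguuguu
The match GTCTTCC occurred in the longest annotated 3′ UTR (GENCODE M21) of 4 of 31 members, 12.9%, against 14.8% of 12197 genes with a UTR, although the median UTR was longer in the members, 2423 bases against 1329. The sites, on the strand of the gene with the match in capitals, lie at chr6:118588757-118588763 in Cacna1c, chr1:154394935-154394941 in Cacna1e, chr7:3367781-3367787 in Cacng7 and chr9:45129685-45129691 in Scn2b.
Cacna1c: aaagagcctgGTCTTCCtggtgtgtta
Cacna1e: gtgctccttgGTCTTCCagtcgagtct
Cacng7: caaaacctccGTCTTCCattttctggt
Scn2b: tcctgctgatGTCTTCCtttattgaag
KO minus WT differences of these 4 in PI were -0.18 for Cacna1c, -0.12 for Cacna1e, -0.00 for Cacng7 and -0.03 for Scn2b, with a median of -0.07 against -0.03 for the 27 members without a match. In CL the medians were 0.02 and 0.01. A match of letters is a description and not a site of binding, and 0 of the 4 passed either test.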

How the data were processed

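Cortex RNA of 24 libraries was analysed, 6 in each of 4 groups taken from the sample titles. Libraries were made with the CORALL total RNA kit after RiboCop depletion, per the labels' protocols. The deposited values are log2 CPM in 4 tables of 12 columns (0 unused columns), and the submitters' processing notes name the build mm10. The aligner, the counting and its use of strand, the filter and the scaling are not given in the sources used here. The authors' tables differ in scale, so tests were made within a table. The deposited values had been Winsorized: each tied low value is 0.75 of the second lowest value plus 0.25 of the one above it, and the high pair mirrors this. Solving for these made 78.7% to 89.0% of 2022 to 2283 low CPM values per group and table whole multiples of 1 read (within 0.03 read), against 10.8% to 13.6% as deposited and 11.6% by chance. The lowest and highest value of a group cannot be recovered, so no count test was run. Depth was read from the size of these steps. Limits cover counting error only.

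Each group was summarised by the mean of its 4 inner values with the Winsorized sum of squares as error (3 degrees of freedom), passed to limma 3.58.1 in R 4.3.3 with a trend in the prior variance. The test was tried on simulated data. Tests used 2 groups of 1 table; the interaction used all 4 groups, over genes in both PI and CL tables. Values are given for members called in PI against CL, for the smallest p of each genotype comparison and the interaction, and for the largest change of each class; partner genes are named when called or when largest. Values of 1 member and 1 marker are not reported here, and counts, medians and sums over the lists include them. The members, the partner and marker lists and the test were chosen with earlier results of these data known. CL and PI libraries of an animal are paired by their titles: correlations of their deviations from the group means were -0.14 to 0.33 in WT and -0.01 to 0.17 in KO. KO and WT numbers name different animals. Nothing else names litters or batches. Alternatives were limma on the deposited values with and without the block, no trend, a minimum of 1 CPM, a pseudocount of 1, centring of groups, a paired trimmed test, and leaving out each library. Coordinates and exon lengths are from GENCODE M21 on GRCm38, and promoters and microRNAs from RefSeq (GRCm38.p6).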

Additional observations from a re-analysis of the deposited data

How the results depend on the processing

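The drawn-in extremes limit these results, since 2 of 6 values per gene and group are not known and a spread taken from the deposited values is too small. The test on deposited values is the more liberal for that reason by construction. Scn9a and Cacng5 had the lowest levels of the members, though their inner values lay above the counting limit. Without recovery, limma on the deposited values called 21 members in WT and 20 in KO for PI against CL (44.6% and 46.5% of all genes), 3 for PI KO against PI WT, 5 for CL KO against CL WT and 4 for the interaction. With the replicate number as a replicate block the same test called 22, 20, 4, 5 and 5. With no trend in the prior variance 6 members passed in each genotype for PI against CL. The paired trimmed test with the animal as a replicate block, added after the data were seen, called 16 in WT and 17 in KO and changed no other count from 0. Leaving out 1 library gave 8 to 11 calls in WT, 7 to 12 in KO and 0 for the genotype comparisons and the interaction. Over these omissions the median of the pore subunits was -0.30 to -0.20 for PI KO against CL KO and -0.11 to -0.041 for PI KO against PI WT. That of the auxiliary subunits was -0.29 to -0.20 for PI KO against CL KO and -0.047 to 0.034 for CL KO against CL WT. Centring each group on its median gene, also added after the data were seen, moved the auxiliary median in KO to -0.25. Where no reason is given, the cause was not tested. Single genes were run through the alternatives in 75 gene and comparison pairs: channel genes called in PI against CL, the largest change of each class, called partner genes and the smallest p of the other comparisons. None of these 75 changed direction, and other genes were not run. Not all of the 75 had a call to lose, since genes called in 1 genotype only and uncalled genes such as Cacng5 are among them. Of the 75, 24 lost their call with no trend and 1 with a pseudocount of 1. Leaving out 1 library gave 912 such values, of which 133 lost a call and 21 gained one. The planned centring of each library before recovery was not run, because it breaks the ties that the recovery needs. Animal pairs correlated best with their own number in 4 of 6 cases in WT and 2 of 6 in KO, and KO and WT numbers in 0 of 6 in either tissue mark.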
